A study of Mus musculus with 86 samples.

Results

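The circadian clock genes examined here are Arntl (also called Bmal1), Npas2, Per1, Per2, Per3, Cry1, Nr1d1, Nr1d2, Dbp and Ciart. They were chosen by name, by looking up their Ensembl identifiers, and made up 10 of the 35275 genes counted. The RNA came from the prefrontal cortex, hippocampus and hypothalamus of 29 wild house mice (Mus musculus domesticus) of a barn population, and gave 86 libraries. Females and males at either extreme of social network size, the number of nest box partners an animal meets per day, were sampled outside the breeding season soon after sunrise. The groups of 7 females with large, 7 females with small, 7 males with large and 8 males with small networks each gave prefrontal and hippocampal libraries. Hypothalamic libraries numbered 7 in each of these 4 groups, because 1 male with a small network has none. No animal was treated or carried an engineered allele, and each library was made from 1 animal and 1 region. The animals varied in age, which the study estimated and the labels do not give, and the hour at which each was killed was not used here.

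In mammals the clock is a loop of transcription. BMAL1, the protein of Arntl, pairs with CLOCK or its relative NPAS2 and switches on genes that carry an E-box in their promoters, among them the Per and Cry genes, whose proteins then hold BMAL1 back. NR1D1 and NR1D2, also called REV-ERB alpha and beta, repress Arntl and Npas2 from RORE sites, and DBP, an activator that binds D-boxes, carries the rhythm on to output genes. Ciart encodes another repressor of the BMAL1 complex. Over a day, Arntl and Npas2 therefore reach their peak at roughly the opposite time from Dbp, Nr1d1 and the Per genes in most tissues.

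The promoters of 5 members are shown as examples of each kind of clock motif found. The letters of at least 1 motif occurred in the windows of 6 members, and that of Nr1d2 is described without its sequence. A window ran from 250 bases before to 50 bases after a RefSeq start site in GRCm38.p6, and 9 of the 10 members had at least 1 window, 11 windows in all. The motifs searched on both strands were the E-box CACGTG, the D-box cores TTATGTAA and TTACGTAA, the half-site AGGTCA of the RORE, and the cAMP response element TGACGTCA. They are in capitals below, each sequence reads 5′ to 3′ on the strand of the gene, and AGGTCA on the other strand reads TGACCT.

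Ciart, chr3:95882179-95882478, minus strand: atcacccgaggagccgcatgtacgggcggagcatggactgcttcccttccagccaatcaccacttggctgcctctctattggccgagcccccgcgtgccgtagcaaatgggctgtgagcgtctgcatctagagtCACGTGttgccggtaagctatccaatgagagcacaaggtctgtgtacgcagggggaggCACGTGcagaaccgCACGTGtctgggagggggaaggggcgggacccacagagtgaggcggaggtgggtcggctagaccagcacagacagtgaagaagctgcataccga
Per1, chr11:69098699-69098998, plus strand: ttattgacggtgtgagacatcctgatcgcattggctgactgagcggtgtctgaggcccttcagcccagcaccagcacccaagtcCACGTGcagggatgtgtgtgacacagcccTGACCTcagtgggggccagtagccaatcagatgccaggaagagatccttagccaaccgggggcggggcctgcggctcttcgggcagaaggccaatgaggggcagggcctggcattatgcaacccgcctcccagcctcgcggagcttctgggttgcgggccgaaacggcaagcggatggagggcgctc
Cry1, chr10:85185005-85185304, minus strand: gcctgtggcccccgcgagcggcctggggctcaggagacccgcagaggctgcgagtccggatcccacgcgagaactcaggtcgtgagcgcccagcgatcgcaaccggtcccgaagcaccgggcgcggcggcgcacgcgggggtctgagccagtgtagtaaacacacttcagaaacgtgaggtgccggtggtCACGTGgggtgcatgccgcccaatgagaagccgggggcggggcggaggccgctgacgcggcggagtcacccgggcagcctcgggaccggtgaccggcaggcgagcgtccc
Per3, chr4:151044616-151044915, minus strand: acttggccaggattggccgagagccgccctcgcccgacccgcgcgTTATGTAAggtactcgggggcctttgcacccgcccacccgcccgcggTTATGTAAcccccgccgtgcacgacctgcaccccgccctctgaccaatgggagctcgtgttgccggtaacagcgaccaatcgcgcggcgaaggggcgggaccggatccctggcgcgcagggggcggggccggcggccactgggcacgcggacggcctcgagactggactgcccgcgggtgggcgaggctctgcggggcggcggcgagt
Arntl, chr7:113207261-113207560, plus strand: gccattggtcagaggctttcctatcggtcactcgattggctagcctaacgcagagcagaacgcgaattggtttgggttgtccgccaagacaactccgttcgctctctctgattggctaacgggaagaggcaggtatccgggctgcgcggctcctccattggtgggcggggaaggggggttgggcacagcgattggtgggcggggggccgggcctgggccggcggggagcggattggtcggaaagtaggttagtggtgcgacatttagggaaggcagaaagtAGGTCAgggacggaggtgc

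Ciart had 3 E-boxes, whose first bases lay at -116, -58 and -44 from the start site, while Per1 had 1 at -166 and Cry1 1 at -60. Of 32851 windows of all genes, 7.15% held an E-box. Per3 had 2 D-box cores, at -205 and -158, which 1.06% of all windows held. The RORE half-site lay at 32 in the printed Arntl window, at -137 in the Per1 window and at -77 in that of Nr1d2, and was in 16.3% of all windows. No member window held TGACGTCA, which was in 1.79% of all windows. A match to these letters is a description of the sequence and was not tested for binding.

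The libraries held 33711824 to 81865801 counts (median 44778419), and the members had between 329 and 13243 counts in every library. In all 86 libraries the most similar other library was of the same region, and the markers of each region were highest there (5 of 5 genes for the prefrontal cortex, 5 of 5 for the hippocampus and 9 of 9 for the hypothalamus). Within the hypothalamus the summed level of the 9 hypothalamic markers ranged from 163 CPM (counts scaled to the library total with TMM factors) in animal 10 to 1516 in animal 20. The 8 markers of the suprachiasmatic nucleus, the site of the central clock, did not all point to the hypothalamus. Prok2, Nms, Six6 and Lhx1 were highest there at low levels, and the other 4 were highest elsewhere. Prok2 had 1.81 ± 0.720 CPM (SD, n = 28), Six6 2.78 ± 1.01 and Nms 0.981 ± 0.359, while Lhx1 had a mean of 6.68 in the hypothalamus and 4.13 in the hippocampus. Vip at 6.35 ± 2.42 was below its level of 51.2 ± 6.56 in the prefrontal cortex. The means of Vipr2, Grp and Rora in the hypothalamus were 4.51, 3.43 and 79.8 CPM, against 5.05, 15.1 and 129 in the hippocampus. The hypothalamus of animal 19 had the low RNA quality that the study names, and the read numbers that the study lists for the hippocampus and hypothalamus of animal 12 stand in the reverse order of the deposited totals. Without animal 12 the counts of correlated pairs given below were 22, 15 and 10 in place of 23, 19 and 10 in the prefrontal cortex, hippocampus and hypothalamus, and without animal 19 they were 21, 19 and 11, both chosen after the data were seen. Among all pairs of a member with any gene, 6246, 1230 and 2010 passed. Without animal 12 these were 5655, 1044 and 1582, and without animal 19 they were 6139, 1344 and 2189.

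In GRCm38 (GENCODE vM21) the genes on the plus strand span Arntl chr7:113207465-113314126, Npas2 chr1:39193731-39363236, Per1 chr11:69095217-69109960 and Dbp chr7:45705088-45710203. Those on the minus strand span Per2 chr1:91415982-91459324, Per3 chr4:151003652-151044665, Cry1 chr10:85131700-85185064, Nr1d1 chr11:98767932-98775333, Nr1d2 chr14:18204054-18239127 and Ciart chr3:95878503-95882251. Some members share their locus with other genes. Exons of Nr1d1 overlap those of Thra on the opposite strand, and exons of Dbp overlap those of Sphk2 on the opposite strand. The median count was 4099 for Nr1d1 against 23878 for Thra, and 3410.5 for Dbp against 1158.5 for Sphk2. The library kit does not mark strand, so reads from the shared stretches cannot be told apart. The strand setting of the counting is not given in the sources used here. Per3 lies within the bounds of Camta1 on the same strand without sharing an exon. The median count was 3509 for Per3 against 15661.5 for Camta1.

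Among the activators, Arntl (ENSMUSG00000055116) had 34.8 ± 5.77 CPM in the prefrontal cortex (SD, n = 29), 30.1 ± 5.05 in the hippocampus (n = 29) and 22.6 ± 3.07 in the hypothalamus (n = 28), on a scale normalized over all libraries. The libraries ranged from 25.4 to 45.4, from 22.7 to 44.9 and from 17.98 to 29.2 CPM in the same order. All 28 animals with both libraries had less Arntl in the hypothalamus than in either other region. Npas2 (ENSMUSG00000026077), the forebrain relative of Clock, had the steepest order of all members, with 51.9 ± 7.15, 28.5 ± 3.01 and 20.9 ± 4.75 CPM. Its lowest prefrontal value of 38.6 exceeded its highest hippocampal value of 34.6 CPM, whereas the hippocampal and hypothalamic ranges overlapped.

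Among the repressors, Per1 (ENSMUSG00000020893) had 152 ± 49.7 CPM in the prefrontal cortex, 106 ± 20.9 in the hippocampus and 95.8 ± 20.3 in the hypothalamus. Per2 (ENSMUSG00000055866) had 54.8 ± 20.5, 45.2 ± 13.6 and 39.5 ± 8.97 CPM in the same order. For Per2 the prefrontal libraries ran from 17.98 to 96.4 CPM, which enclosed every value of the other regions. Per3 (ENSMUSG00000028957) was lowest in the hippocampus instead, at 71.6 ± 13.5 CPM against 80.9 ± 12.6 in the hypothalamus and 95.5 ± 17.7 in the prefrontal cortex. Cry1 (ENSMUSG00000020038) had 19.8 ± 3.88, 18.6 ± 4.12 and 20.4 ± 3.12 CPM, and these means differed by less than their SD. Nr1d1 (ENSMUSG00000020889) fell in steps from 125 ± 18.5 through 94.6 ± 9.23 to 71.0 ± 7.79 CPM, and Nr1d2 (ENSMUSG00000021775) was flatter, at 171 ± 15.9, 160 ± 20.5 and 145 ± 15.8 CPM.

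Dbp (ENSMUSG00000059824), the output factor, had 92.1 ± 22.6 CPM in the prefrontal cortex, 77.0 ± 17.2 in the hippocampus and 70.5 ± 15.7 in the hypothalamus. Ciart (ENSMUSG00000038550), the repressor of the BMAL1 complex, had 26.9 ± 9.65, 18.9 ± 5.42 and 17.6 ± 4.15 CPM. Per kilobase of exon, the highest level in the prefrontal cortex was that of Nr1d1 at 40.8 ± 6.01 CPM per kb, followed by Nr1d2 at 31.6 ± 2.94, Dbp at 30.8 ± 7.56 and Per1 at 27.003 ± 8.82. The lowest were Cry1 at 5.92 ± 1.16 and Arntl at 4.63 ± 0.767 CPM per kb. The means of Nr1d2, Dbp and Per1 differed by less than the SD of Dbp and of Per1.

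**Figure D1:**
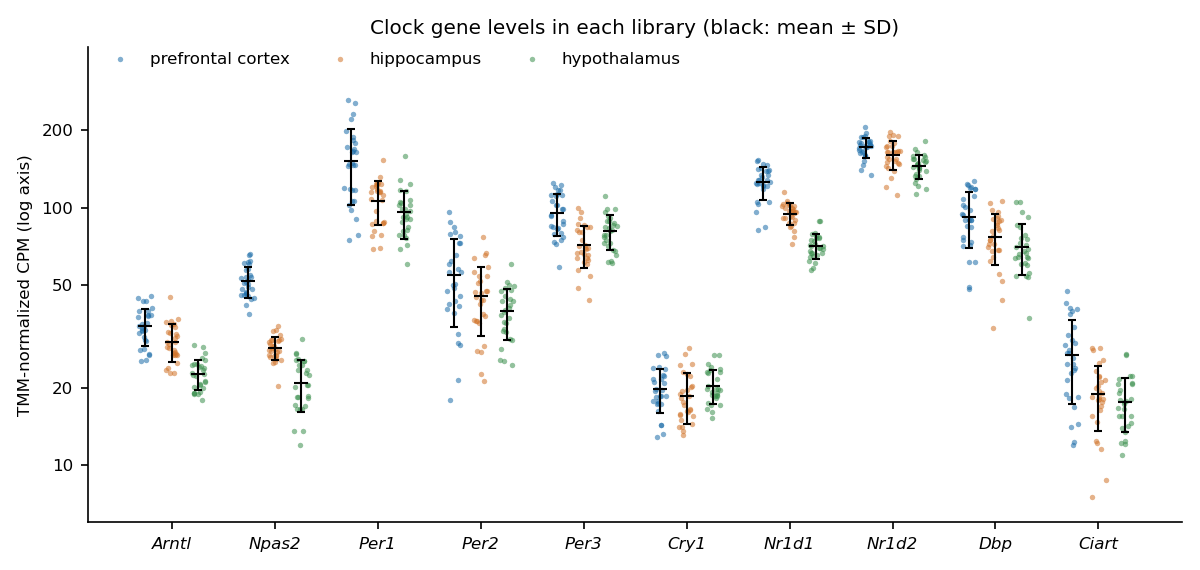
TMM-normalized CPM on a log axis for each of the 10 clock genes, with 1 point per library in the prefrontal cortex (29), hippocampus (29) and hypothalamus (28) and the mean ± SD in black. The mean is highest in the prefrontal cortex for 9 of the 10 genes, and for Cry1 the means are 19.8, 18.6 and 20.4 CPM with overlapping ranges.

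Levels of the clock genes differed between regions, mostly downwards from the prefrontal cortex. Relative to the prefrontal cortex, 8 of the 10 members were lower in the hippocampus and 0 were higher. Of all 18769 genes tested, 5744 were lower there and 6592 higher (65.7% in either direction). The hypothalamus had 9 members lower and 0 higher than the prefrontal cortex, beside 6965 genes lower and 7478 higher (77.0%). In the hypothalamus relative to the hippocampus 4 members were lower and Per3 was higher, beside 6876 genes lower and 6406 higher (70.8%). The largest difference was that of Npas2, with a log2 fold change of -1.32 ± 0.06 (SE) in the hypothalamus and -0.86 ± 0.06 in the hippocampus relative to the prefrontal cortex (adjusted p = 7.56e-34 and 4.86e-22, edgeR quasi-likelihood test). Nr1d1 had -0.83 ± 0.05 and -0.40 ± 0.05, and Arntl -0.63 ± 0.06 and -0.20 ± 0.06. Cry1 had 0.04 ± 0.07 and -0.08 ± 0.07 (adjusted p = 0.652 and 0.313), and Nr1d2 in the hippocampus had -0.09 ± 0.04 (adjusted p = 0.0538).

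Because the 3 regions came from the same animals, the comparison was also fitted with the animal as a replicate block. With this paired fit, 10 of the 10 members differed between hippocampus and prefrontal cortex, 9 between hypothalamus and prefrontal cortex and 9 between hypothalamus and hippocampus, where there had been 5. Cry1 then had an adjusted p of 0.0353 and Nr1d2 of 0.000483 in the hippocampus relative to the prefrontal cortex. Between hypothalamus and hippocampus the block added Cry1 (log2 fold change 0.14, adjusted p = 0.00066), Per1 (-0.16, adjusted p = 0.000804), Per2 (-0.15, adjusted p = 0.00244) and Dbp (-0.12, adjusted p = 0.0172). The share of all genes that differed in the paired fit is not given here, so its counts are not set against a background. In bulk tissue, fewer cells that express a gene and less RNA per cell cannot be told apart.

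The members differed widely in how much they varied among animals of the same sex and network size. Per2 in the prefrontal cortex had the largest within-group SD, 0.63 on the log2 scale, and its highest library exceeded its lowest 5.32-fold. Ciart had 0.56 and Per1 0.50 there, and these values lay at percentiles 92.7, 89.9 and 85.7 of the 18452 genes kept in that region, whose median SD was 0.20. Nr1d2 had only 0.14 (percentile 26.01) in the prefrontal cortex. In the hypothalamus the spread of Per2 was 0.34 and that of Ciart 0.35, and Npas2 was at 0.34, compared with 0.19 in the prefrontal cortex and 0.16 in the hippocampus. The differences in spread between regions were not tested.

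Some animals stood at the ends of the range for several members. Animal 22, a male with a large network, was the lowest of all animals for 6 of the 10 members in the hippocampus (Per1, Cry1, Nr1d1, Nr1d2, Dbp and Ciart) and for 5 in the hypothalamus, and had the highest Arntl in both regions. Its Dbp was 34.0 CPM in the hippocampus, against a median of 77.5. Animal 5, a female with a small network, was the lowest for 5 members in the prefrontal cortex, among them Per1 at 75.2 and Per2 at 17.98 CPM. Animal 4, also a female with a small network, had the highest Per1 in all 3 regions, with 261, 153 and 158 CPM, and the lowest Arntl in the hippocampus and hypothalamus.

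Whether clock gene levels differ with the size of an animal's social network was asked in each sex and region. No member differed in any of the 6 comparisons at an adjusted p under 0.05, by edgeR or by the DESeq2 Wald test, and 0 of the 60 values had an unadjusted p under 0.05 in either. Of all genes tested by edgeR in females, 0.0113% differed in the prefrontal cortex, 0.0% in the hippocampus and 0.00552% in the hypothalamus. In males 0.0% differed in each region. The study itself, which used DESeq2, reported more differing genes in each region of females, and very few in males. The share of all genes by DESeq2 is not given here. An unadjusted p under 0.05 by edgeR was found in females for 1698 of 17710, 2174 of 17800 and 1339 of 18129 genes. In males it was found for 448 of 17781, 697 of 17950 and 524 of 18053 genes in the same order. The log2 fold changes of the members, small relative to large, ran from -0.16 to 0.30, with standard errors between 0.06 and 0.27.

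In the prefrontal cortex of females Per1 had the smallest p. The 7 females with small networks ranged from 75.2 to 261 CPM with a median of 149, and the 7 with large networks from 97.996 to 171 with a median of 146. The groups overlapped, with means of 166 ± 64.3 and 134 ± 31.5 CPM (SD), a log2 fold change of 0.30 ± 0.22 (SE) and an adjusted p of 0.588 (edgeR; two-sided exact permutation test of the means, p = 0.269). In the hippocampus of females Cry1 ranged from 15.04 to 28.4 CPM with small and from 15.6 to 20.2 with large networks, and its medians were 19.6 and 16.3. This log2 fold change of 0.23 ± 0.12 had the smallest unadjusted p of all 60 values, 0.0715 (edgeR, adjusted p = 0.453, exact permutation p = 0.134). In the hypothalamus of females Nr1d1 ranged from 66.7 to 88.4 and from 58.5 to 78.4 CPM, a log2 fold change of 0.07 ± 0.07 (edgeR adjusted p = 0.861, exact permutation p = 0.374).

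In males the smallest p belonged to Dbp in the prefrontal cortex and hypothalamus and to Arntl in the hippocampus. Dbp in the prefrontal cortex ran from 49.0 to 122 CPM (median 101) in the 8 males with small networks and from 48.3 to 120 (median 89.2) in the 7 with large networks. Its log2 fold change was 0.19 ± 0.19 (edgeR adjusted p = 0.999994, exact permutation p = 0.342). In the hypothalamus it was 0.20 ± 0.14 (edgeR adjusted p = 0.9996, exact permutation p = 0.217), with ranges of 55.7 to 91.8 and 37.1 to 75.2 CPM. Arntl in the hippocampus had 29.1 ± 3.04 CPM with small and 32.5 ± 6.80 with large networks, a log2 fold change of -0.16 ± 0.11 (edgeR adjusted p = 0.999, exact permutation p = 0.243). With 7 animals against 7 the smallest p this exact test can give is 0.000583, and with 8 against 7 it is 0.000311.

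**Figure D2:**
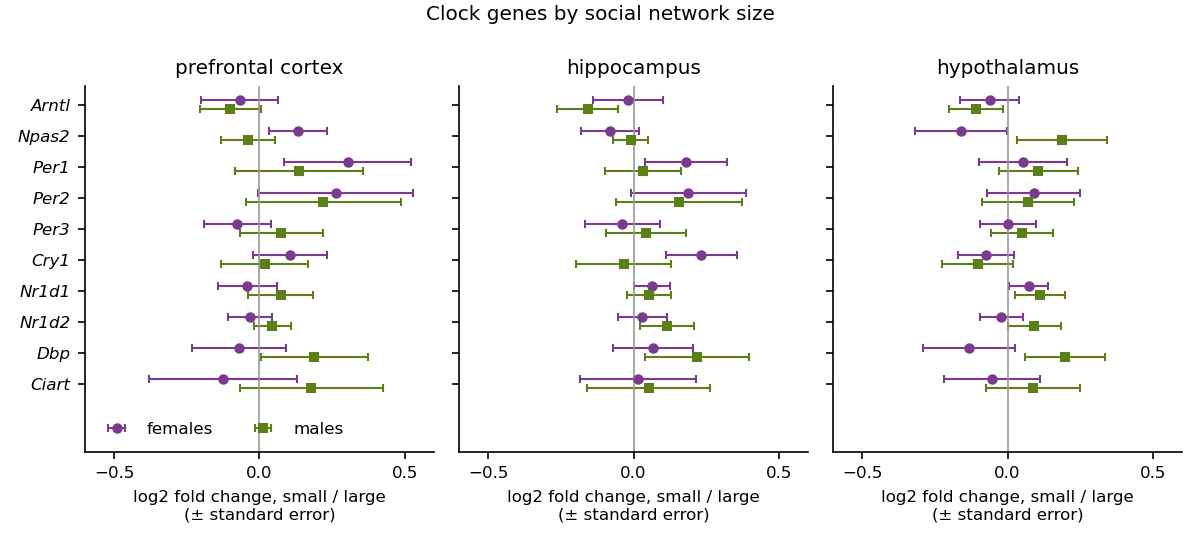
Log2 fold change of each clock gene, animals with small networks over those with large ones, with its standard error, in females (circles) and males (squares) of each region. All 60 values lie between -0.16 and 0.30, and none passed an adjusted p of 0.05.

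The sexes were compared in the same way. A difference between the female and male effects of network size was found for 0 of 10 members in each region, and 0 of these 30 values had an unadjusted p under 0.05 by edgeR or DESeq2. Of all genes, edgeR gave an unadjusted p under 0.05 for 769 of 18452 (prefrontal cortex), 1371 of 18598 (hippocampus) and 1152 of 18753 (hypothalamus). Among all genes this test called 0.0% in the prefrontal cortex, 0.0% in the hippocampus and 0.0% in the hypothalamus. The smallest p were those of Npas2 in the prefrontal cortex (difference of log2 fold changes 0.18 ± 0.14, adjusted p = 0.997), Cry1 in the hippocampus (0.27 ± 0.22, adjusted p = 0.790) and Npas2 in the hypothalamus (-0.35 ± 0.23, adjusted p = 0.817). Females and males did not differ at an adjusted p under 0.05 for any member either, where 0.0976%, 0.102% and 0.117% of all genes differed in the prefrontal cortex, hippocampus and hypothalamus. Per3 in the hypothalamus, at 86.5 ± 11.6 CPM in 14 females and 75.3 ± 11.3 in 14 males, was the 1 value of 30 with an unadjusted p under 0.05 in either tool (log2 fold change 0.20 ± 0.07, edgeR adjusted p = 0.604, permutation p = 0.0156). Nr1d2 in the prefrontal cortex (0.08 ± 0.05) and Nr1d1 in the hippocampus (0.08 ± 0.05) had the smallest p in the other regions. Their edgeR adjusted p were 0.999 and 0.863. For sex, edgeR gave an unadjusted p under 0.05 for 919 of all 18452 genes in the prefrontal cortex. It did so for 1114 of 18598 in the hippocampus and 1274 of 18753 in the hypothalamus.

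Animals that had more of a clock gene in 1 brain region mostly had more of it in the others. Deviations of log2 CPM from the mean of each sex by network size group were correlated over animals for every gene kept in both regions, with 100000 permutations of animals within groups and adjustment over all genes. For 9 of the 10 members the correlation passed in each pair of regions, all of them positive. Among all genes, 27.1% passed between prefrontal cortex and hippocampus, 25.5% between prefrontal cortex and hypothalamus and 27.4% between hippocampus and hypothalamus. The 27 values of these 9 members lay between 0.57 and 0.95, above at least 82.5% of all genes.

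Per2 had the highest correlation between prefrontal cortex and hippocampus, r = 0.95 (rho = 0.95, n = 29), with 0.91 between prefrontal cortex and hypothalamus and 0.87 between hippocampus and hypothalamus (n = 28). Ciart had 0.93, 0.86 and 0.87 in the same order, and Per1 had 0.92, 0.82 and 0.90. Each of these values had the smallest p that the permutations can give, 1e-05 (adjusted p of at most 0.000338), for r as for rho. Arntl, on the activating side, had r of 0.86, 0.81 and 0.88. Dbp had 0.93, 0.58 and 0.71. Without the 2 animals farthest from the median, its r between prefrontal cortex and hypothalamus was 0.40, and its rho of 0.47 there did not pass (permutation p = 0.0168, adjusted p = 0.0625).

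Per3 (0.79, 0.84 and 0.74), Cry1 (0.76, 0.77 and 0.86) and Nr1d1 (0.76, 0.57 and 0.64) also passed by r and by rho in each pair. Nr1d2 had 0.66, 0.63 and 0.79. Its rho between prefrontal cortex and hippocampus was 0.47 (permutation p = 0.0153, adjusted p = 0.0563), and without the 2 farthest animals its r was 0.41. With each animal left out in turn, the lowest of the 27 values was 0.47. In females alone they lay between 0.45 and 0.96 and in males alone between 0.61 and 0.97.

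Npas2 was the exception. Its r was 0.35 between prefrontal cortex and hippocampus, 0.07 between prefrontal cortex and hypothalamus and 0.02 between hippocampus and hypothalamus (permutation p = 0.0893, 0.736 and 0.933). Its rho was 0.30, 0.07 and 0.03, and without the 2 farthest animals r was 0.32, 0.13 and -0.04. No test compared its values with those of the other members. Other lists moved together between regions too. All 16 activity-induced genes passed between prefrontal cortex and hippocampus, with a median r of 0.71, and so did 10 of 11 glucocorticoid-induced genes (median 0.74) and 4 of 4 tested blood markers (0.83), beside a median of 0.82 for the 10 members and 0.32 for all genes. Their part in the correlations of the clock genes was not tested.

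**Figure D3:**
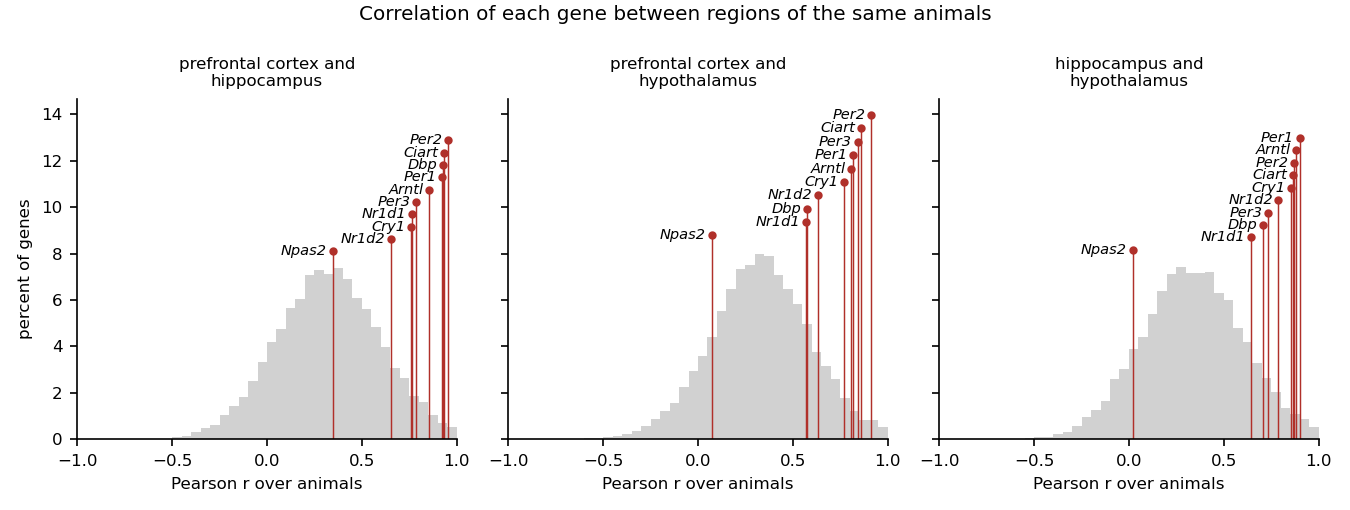
Pearson r over animals between 2 regions, as the percentage of all genes in bins of 0.05 (grey) and for each clock gene (red, at heights chosen only to separate the names). Npas2 lies at 0.35, 0.07 and 0.02 and the other 9 genes at 0.57 or more.

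Within each region Arntl stood opposite to 8 other members, whereas Npas2 did so only in the prefrontal cortex and hippocampus. The 8 pairs of Npas2 with these genes were all negative in those 2 regions, and 1 passed in each. In the hypothalamus 6 of them were positive and 2 negative, and 0 passed. Of the 45 pairs of members, 23 passed in the prefrontal cortex (18 positive and 5 negative), 19 in the hippocampus (15 and 4) and 10 in the hypothalamus (8 and 2). Among all pairs of a member with any gene, 3.39%, 0.662% and 1.07% passed in the same order. The 28 pairs among Per1, Per2, Per3, Cry1, Nr1d1, Nr1d2, Dbp and Ciart all had a positive r in each region, with medians of 0.69, 0.69 and 0.60. The 8 pairs of Arntl with these genes all had a negative r in each region, with medians of -0.58, -0.58 and -0.57. The lowest r among the 28 pairs was 0.44, 0.44 and 0.19. In the hypothalamus the sign turned for pairs of Nr1d2. Nr1d2 with Dbp was -0.14 without the 2 farthest animals and -0.32 in females alone, and Nr1d2 with Ciart was -0.07 and -0.02. In females alone Nr1d2 also had -0.17 with Nr1d1, -0.07 with Per3, -0.06 with Cry1 and -0.00039 with Per1. Of all 45 pairs, 38 had the same sign in each region and 10 passed in each.

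Dbp and Ciart were the closest pair in the prefrontal cortex and in the hippocampus, with r of 0.93 and 0.95, and had 0.77 in the hypothalamus (rho 0.91, 0.86 and 0.72). Arntl and Ciart were the most opposed pair in each region, with r of -0.85, -0.86 and -0.73 (rho -0.87, -0.86 and -0.69). Arntl and Dbp had -0.81, -0.81 and -0.62, of which the last did not pass (permutation p = 0.00112, adjusted p = 0.0682). With each animal left out in turn, the values closest to 0 were -0.78, -0.76 and -0.56. Without the 2 animals farthest from the median of Arntl they were -0.77, -0.81 and -0.52. Females alone had r of -0.78, -0.86 and -0.76 and males alone -0.87, -0.82 and -0.43.

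Per1 and Per2 were positively correlated, with r of 0.88, 0.79 and 0.83 (adjusted p = 0.00407, 0.0159 and 0.00952). Per2 and Cry1 were the closest pair in the hypothalamus, at 0.83, and had 0.87 and 0.68 in the other regions. Per3 and Dbp had 0.72, 0.63 and 0.63, and Nr1d1 and Dbp 0.69, 0.70 and 0.62, and both pairs passed in the prefrontal cortex only (adjusted p = 0.0094, 0.0585 and 0.0558, and 0.0173, 0.0504 and 0.0509). Nr1d1 and its paralog Nr1d2 did not pass in any region (0.49, 0.56 and 0.20), and in the prefrontal cortex r was 0.01 without the 2 animals farthest from the median.

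Arntl and Nr1d1, its direct repressor, had r of -0.41, -0.40 and -0.27, none past the threshold (permutation p = 0.0257, 0.0441 and 0.178). Arntl and Npas2, partners on the positive side of the loop, had 0.53 in the prefrontal cortex (permutation p = 0.00663, adjusted p = 0.101), 0.27 in the hippocampus and -0.00065 in the hypothalamus. Npas2 was opposed to Dbp in the prefrontal cortex (-0.59, adjusted p = 0.0433), had -0.32 in the hippocampus and 0.26 in the hypothalamus, neither of which passed. Npas2 and Cry1 had -0.26, -0.48 and 0.10, none past the threshold. The pair of Npas2 that passed in the hippocampus was that with Nr1d2 (-0.70, adjusted p = 0.0294), chosen after its value was seen.

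**Figure D4:**
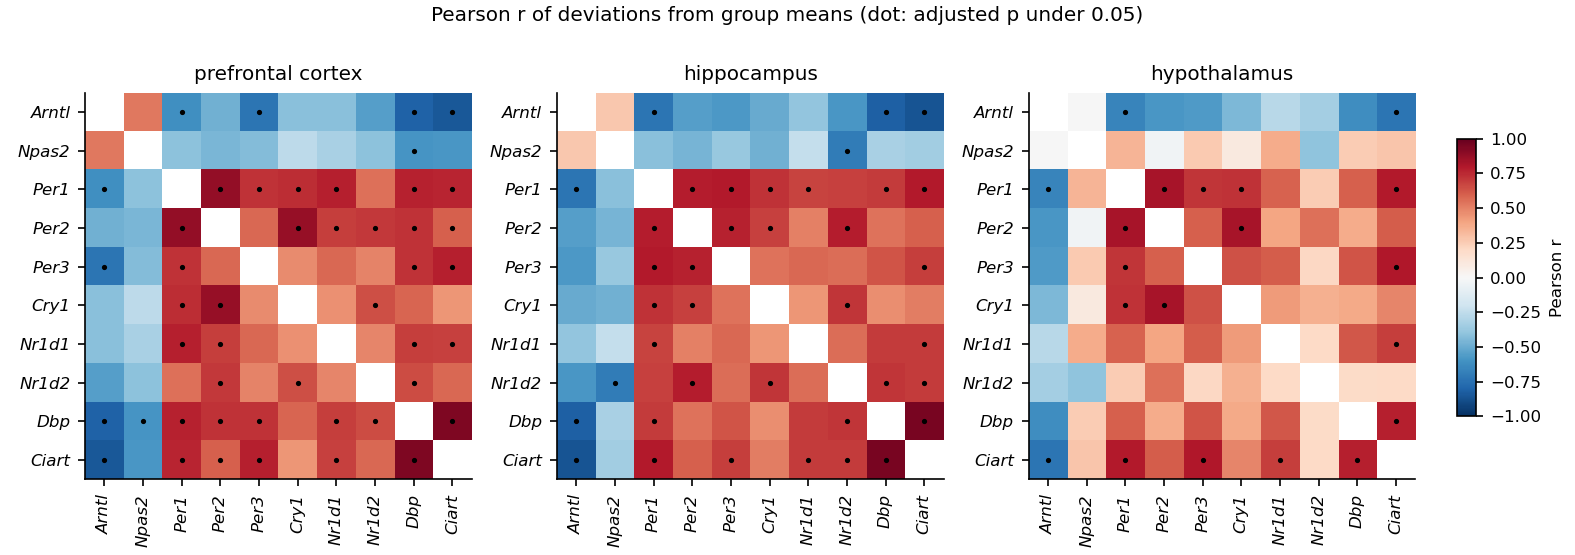
Pearson r between clock genes within each region, from deviations of log2 CPM from group means over 29, 29 and 28 animals, from blue (-1) through white (0) to red (1), with a dot where the adjusted p was under 0.05. Arntl forms a blue band against the 8 genes from Per1 to Ciart in each region. Npas2 does so in the prefrontal cortex and hippocampus, where 1 of these pairs passed in each.

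**Figure D5:**
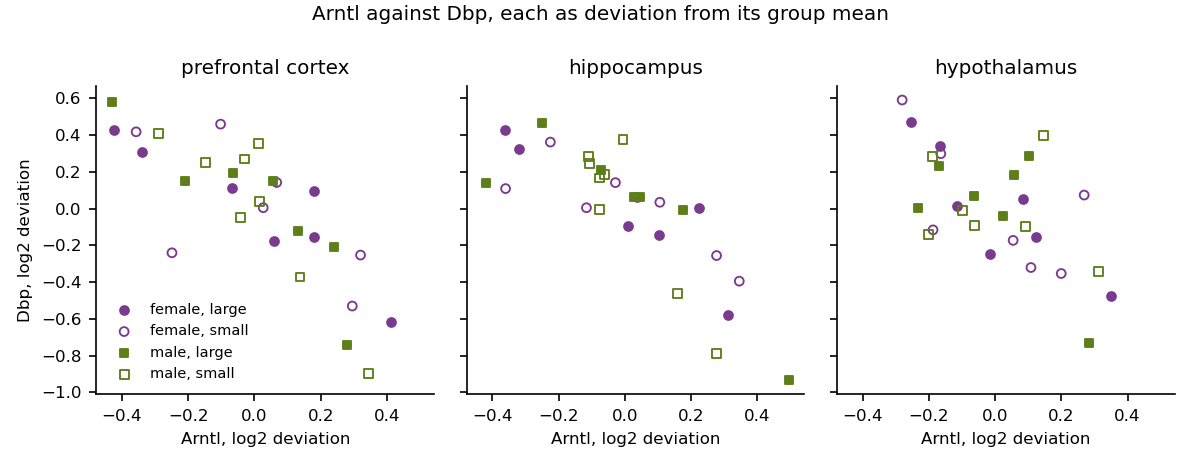
Deviations of Dbp from its group mean against those of Arntl on the log2 scale, with 1 point per animal in each region and a symbol for each sex by network size group. Animals with more Arntl had less Dbp, with r of -0.81, -0.81 and -0.62.

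Levels of other lists and of depth were set beside the members. Over the 10 members the r with the log2 library total had a median of 0.10 in the prefrontal cortex, -0.14 in the hippocampus and 0.18 in the hypothalamus. With the mean of the oligodendrocyte markers the medians were -0.03, -0.11 and -0.01, and with that of the astrocyte markers -0.29, -0.21 and -0.26. The ependymal markers had medians of -0.08, -0.37 and -0.38, with values of single members from -0.54 to 0.27 in the hippocampus and from -0.54 to 0.27 in the hypothalamus. The microglia markers had medians of 0.06, 0.17 and 0.01, and in the hypothalamus their r with Nr1d2 was 0.72. The part of the ependymal and microglia markers in the correlations was not tested. When the deviations were also adjusted for the oligodendrocyte, astrocyte and blood markers, 20, 22 and 11 pairs passed in place of 23, 19 and 10. Among all pairs of a member with any gene, 3622, 2047 and 2219 passed in place of 6246, 1230 and 2010.

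The opposition of Arntl to the members other than Npas2 also appeared in sign between regions of the same animal. This relation was added after other values were seen. It uses the same libraries as the correlations above and is not independent of them. Arntl of 1 region was correlated with every gene of another, with adjustment over all 111600 tests, of which 0.0233% passed. Ciart had an r with Arntl of another region between -0.87 and -0.80 in all 6 orders of regions, and 5 of the 6 passed (each at the smallest permutation p, 1e-05, adjusted p = 0.0429). For Dbp the values lay between -0.84 and -0.62, of which 3 passed. Per1 passed once (r = -0.77, Arntl in the hippocampus and Per1 in the hypothalamus). In total 9 of the 54 member values passed, and all 48 values of the members other than Npas2 were negative. Only the smallest permutation p passed here, as a permutation p of 2e-05 already had an adjusted p of 0.0572. Ciart of the hippocampus with Arntl of the hypothalamus (r = -0.81) fell there, so these counts do not rank the genes.

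The genes outside the 10 members that were most like each of them were ranked by their mean r within the 3 regions, among 17824 genes kept in all of them. Other members are left out of this ranking, and some of them, such as Ciart for Dbp, had higher values. Tef, a transcription factor of the same PAR bZIP family as Dbp, was the closest of these genes to Per1 (mean r 0.85), Per2 (0.80) and Per3 (0.72), the second closest to Ciart (0.77) and the third to Dbp (0.72). Bhlhe41 was the closest non-member to Dbp (0.79) and second for Nr1d1 (0.68), after Mnt (0.69) and before B4galt3 (0.65). Hrh3, the histamine H3 receptor, was the closest non-member to Ciart (0.79) and second for Dbp (0.77). For Arntl the closest were Nfil3 (0.63), Ahsa1 (0.63) and Leo1 (0.62), and for Npas2 Phactr1 (0.70), Fam81a (0.65) and Gm45837 (0.64). Cry1 had Ankrd13a (0.79), Phf23 (0.78) and Narf (0.78), and Nr1d2 had Ankrd12 (0.78), Fmo2 (0.73) and Ahctf1 (0.72). The remaining genes were Mknk2 (0.83) and Pprc1 (0.82) for Per1, Narf (0.80) and Plekhm1 (0.77) for Per2, Map3k3 (0.71) and Cry2 (0.71) for Per3, and Rps6ka4 (0.71) for Ciart.

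Of 17 other genes of the clock, 0 differed by network size, sex or their interaction in any region, with a smallest adjusted p of 0.268 (edgeR, females, hippocampus). Between hippocampus and prefrontal cortex 15 of these 17 genes differed (5 higher and 10 lower in the hippocampus). The count was 14 between hypothalamus and prefrontal cortex (2 higher and 12 lower) and 15 between hypothalamus and hippocampus (4 higher and 11 lower). Of all genes tested, 65.7%, 77.0% and 70.8% differed in the same order. In the hypothalamus relative to the prefrontal cortex, Fbxl21, which helps to turn over CRY proteins, had a log2 fold change of 1.49 ± 0.04, Hlf, a relative of Dbp, -1.38 ± 0.06, Usp2, a deubiquitinase, -1.27 ± 0.06, Bhlhe40, a repressor, -1.43 ± 0.07 and Rorb, an orphan receptor, -1.19 ± 0.07.

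In the hippocampus relative to the prefrontal cortex the values were -1.03 ± 0.07 for Rorb, -0.93 ± 0.07 for Bhlhe40, 0.57 ± 0.04 for Fbxl21, -0.48 ± 0.04 for Cry2 and -0.25 ± 0.02 for Btrc. Between hypothalamus and hippocampus they were 0.92 ± 0.04 for Fbxl21, -0.77 ± 0.06 for Hlf, -0.71 ± 0.06 for Usp2 and -0.36 ± 0.04 for Clock, each with an edgeR adjusted p under 0.05.

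Across regions of the same animals, 7, 8 and 9 of these 17 genes passed in the 3 pairs of regions, with median r of 0.37, 0.44 and 0.58. Among all genes, 27.1%, 25.5% and 27.4% passed in the same order. Tef had r of 0.92, 0.83 and 0.79, Cry2 0.79, 0.77 and 0.74 and Nfil3 0.84, 0.72 and 0.64. Clock itself, the other partner of BMAL1, had 0.37, 0.50 and 0.66, of which the last 2 passed. Rora and Rorb, activators at RORE sites, did not pass in any pair.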

How the data were processed

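Total RNA of micropunched prefrontal cortex, hippocampus and hypothalamus was sequenced as read pairs after NEBNext Ultra library preparation, a kit that does not mark strand. The authors mapped reads to GRCm38/mm10 with STAR, counted them per gene with HTSeq and deposited raw counts, 1 column per library. The submitters' processing notes name CASAVA 1.8.2, STAR and DESeq2. The annotation release and the strand setting of the counting are not given in the sources used here. Groups came from the labels for region, sex and gregariousness, and the number in each library's title gave the animal.

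The deposited counts were tested with edgeR 4.0.16 (R 4.3.3, limma 3.58.1), using TMM scaling, genes kept at a minimum count of 10 (minimum total 15, proportion 0.7), the quasi-likelihood test and Benjamini-Hochberg adjustment over all genes kept. DESeq2 1.42.0 was an alternative. Replicates are single animals. The 3 regions share animals, so the number pairs the samples by design. Same-numbered libraries correlated at 0.15, 0.14 and 0.15 or more in the 3 pairs of regions, and 19 of 29, 19 of 28 and 22 of 28 correlated best with their own number, with values of up to 0.45, 0.68 and 0.45 to another animal. Correlations used log2 CPM with a prior count of 2, deviations from group means and 100000 permutations of animals within groups (Python 3.11.15, NumPy 2.4.6), with Benjamini-Hochberg adjustment over all genes or all member by gene pairs. They comprised 30 relations between regions, 135 pairs within regions and 54 relations of Arntl across regions. Gene positions and names came from GENCODE vM21, which held 34490 of the 35275 identifiers, and promoters from RefSeq. The named genes and pairs were, by rule, the member with the smallest p in each comparison, the pairs listed by their known roles and the highest and lowest pair of each region, and the 3 genes with the highest mean r to each member, and of the other clock genes at most 5 by p in each comparison, of which 1 gene is not reported here. The tests were tried on simulated data first. The members and all gene lists were chosen with earlier results of these data known.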

Additional observations from a re-analysis of the deposited data

Results flagged for a closer look

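In 5 of 120 sets of libraries (1 member in 1 group), the highest or lowest animal stood apart by Dixon's criterion, which chance meets in about 1 set in 20. In the hypothalamus of females with small networks animal 4 was highest for Per1 at 158 CPM (next 98.4), for Cry1 at 26.8 CPM (next 20.4) and for Nr1d1 at 88.4 CPM (next 74.4). In the prefrontal cortex of males with small networks animal 15 was lowest for Nr1d1 at 83.99 CPM, against 125 in the next animal. In the hypothalamus of males with large networks animal 22 was lowest for Dbp at 37.1 CPM, against 59.9 in the next.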

How the results depend on the processing

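Of 200 recomputed counts, 189 stayed within 1.5 times the count reported. Most of these were 116 counts by network size, 12 by sex and 12 of their interaction, where the reported count was 0. The counts of pairs within regions changed more often. In the prefrontal cortex 2 moved and 6 stayed, in the hippocampus 3 and 5, and in the hypothalamus 2 and 6. With the replicate block, 9 members differed between hypothalamus and hippocampus in place of 5, and the share of all genes with this block is not given here. Within 1 sex, members correlated between prefrontal cortex and hypothalamus numbered 5 in females and 5 in males in place of 9, and between hippocampus and hypothalamus 5 in females in place of 9. Among all genes these counts were 1607 and 1453 in place of 4581, and 1736 in place of 4974. Pairs within the prefrontal cortex numbered 0 in females and 4 in males in place of 23, within the hippocampus 0 and 0, and 10 by Spearman's rho, in place of 19, and within the hypothalamus 0 and 0 in place of 10. Among all pairs of a member with any gene, 0 and 410 passed in place of 6246 in the prefrontal cortex. In the hippocampus 0 and 0 passed, and 414 by rho, in place of 1230. In the hypothalamus 0 and 0 passed in place of 2010. The fits within 1 sex hold fewer animals, and at an unadjusted permutation p under 0.05 there were 37 and 29, 20 and 35, and 24 and 17 pairs. The share of all pairs at this unadjusted threshold is not given here. Npas2 changed sign in males alone between prefrontal cortex and hypothalamus (-0.14) and between hippocampus and hypothalamus (-0.18, and -0.045 without the 2 farthest animals), with ranges of -0.0066 to 0.15 and -0.13 to 0.10 when each animal was left out. In the hypothalamus Arntl with Npas2 was 0.0076 without removing group means, 0.023 in females and 0.024 with marker lists as covariates (-0.094 to 0.11 leaving out each animal). Npas2 with Cry1 was 0.016 in males in the prefrontal cortex. Its hypothalamic value was -0.039 in males and -0.047 with marker lists (-0.045 to 0.18 leaving out each animal). Nr1d1 with Nr1d2 was -0.17 in females in the hypothalamus. The cause of these changes was not tested. Every member had at least 329 counts in every library.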

Other observations

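Cirbp and Rbm3, cold-inducible RNA-binding genes, were correlated between regions of the same animals in each pair of regions (2 of 2 genes, with median r of 0.79, 0.80 and 0.90). Of 16 activity-induced genes, 16 passed between prefrontal cortex and hippocampus, 8 between prefrontal cortex and hypothalamus and 14 between hippocampus and hypothalamus, with median r of 0.71, 0.47 and 0.66. Of 11 glucocorticoid-induced genes, 10, 8 and 11 passed in the same order, with median r of 0.74, 0.71 and 0.83. Of the 5 prefrontal marker genes 1, 0 and 1 passed, and of the 5 hippocampal marker genes 0, 0 and 0 by this permutation test. Among all genes, 27.1%, 25.5% and 27.4% passed in these pairs of regions.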
